A study of Homo sapiens with 6 samples.

Results

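The 9 genes described here are those in which inherited variants cause amyotrophic lateral sclerosis (ALS) or frontotemporal dementia, or modify their risk: SOD1, C9orf72, VCP, GRN, TMEM106B, UBQLN2, PFN1, CHMP2B and ANXA11. They were compared between cells with and without TDP-43 aggregates. They were chosen by name, with earlier results of these data known, and all 9 are among the 36601 rows of the deposited gene count table. A further 108 of the 153462 introns in the deposited splicing table lie inside their spans. All cells came from U2OS, an osteosarcoma line of human origin. Doxycycline induced in them TDP-43-mNLS-Clover, a fluorescently tagged TDP-43 whose nuclear localization signal is mutated. Aggregate cells were given 50 nM fibril seeds made of the TDP-43 low-complexity domain, and an image-based sorter collected those with Clover aggregates after 48 h. Diffuse cells were given storage buffer with the same lipid reagent and were sorted for diffuse Clover signal. Each group held 3 libraries from separate transfections. Both groups carried the transgene and received doxycycline, so neither group shows cells without them. Seeding, sort gate and aggregation cannot be told apart in this design, and all values come from 1 line that is neither a neuron nor a glial cell.

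ALS and frontotemporal dementia share a hallmark in many patients, the loss of TDP-43 from the nucleus and its deposition in the cytoplasm. The inherited risk genes do not form a single pathway. VCP and UBQLN2 handle ubiquitinated proteins, SOD1 removes superoxide, GRN, TMEM106B, CHMP2B and C9orf72 act in lysosomes, endosomes and autophagy, PFN1 serves actin assembly, and ANXA11 binds membranes and RNA granules.

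Gene counts per library ranged from 40279084 to 46863013, and counts of spliced reads from 25341453 to 32020553. TARDBP, the gene of TDP-43, was counted at 2581 ± 42.5 CPM in aggregate cells and 7440 ± 218 CPM in diffuse cells, and this count does not separate gene from transgene. CPM are counts per 1000000, scaled by TMM. Of the 10 mesenchymal and bone markers that describe U2OS, 9 were tested, of which 3 rose, 5 fell and 1 did not pass. The summed level of all 10 was 5740 to 6190 CPM in aggregate cells and 8490 to 8880 CPM in diffuse cells. The summed epithelial markers were lower in aggregate cells (325 to 328 CPM, against 698 to 760 CPM in diffuse cells) and the blood markers higher (12.4 to 15.7 CPM, against 2.74 to 3.38 CPM). Of the 6 blood markers, only CD68 was counted highly enough to be tested. Neuronal markers were at 270 to 278 CPM in aggregate cells and 268 to 289 CPM in diffuse cells in sum. All 6 tested ones changed without overlap by the edgeR test used for all genes, 3 upward and 3 downward. Among them were RBFOX3 (log2 fold change 2.85) and SYT1 (-1.68). Of all genes tested, 75.4% changed and 76.2% did not overlap, so these changes do not set the markers apart. Glial markers, 2 of 5 of them tested, were at 1.23 to 1.45 CPM in aggregate cells and 2.45 to 3.28 CPM in diffuse cells. No marker was at 0 in all libraries, and the part of these shifts in the results on the risk genes was not tested. In sorted bulk RNA, fewer cells that express a gene and less RNA per cell cannot be told apart. Each ± is an SD over the 3 libraries of a group (n = 3), folds are aggregate over diffuse cells, and p-values measure the spread between these libraries.

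Of the 9 genes, 7 rose in aggregate cells, while C9orf72 fell slightly and ANXA11 did not pass the test. GRN and SOD1 rose most, by 1.90-fold and 1.70-fold, and CHMP2B, TMEM106B, VCP, UBQLN2 and PFN1 followed at 1.39-fold to 1.13-fold. The groups did not overlap for 8 of the 9 genes. Most of the transcriptome moved as well: 75.4% of the 17839 genes tested changed, 37.8% rose and 37.6% fell, and 76.2% did not overlap (edgeR quasi-likelihood test, Benjamini-Hochberg adjusted over all genes). The count of 8 changed risk genes is close to that background share. Their median log2 fold change was 0.36, against 0.01 for all genes tested. Against a fold of at least 1.2, GRN, SOD1, CHMP2B, TMEM106B and VCP still passed, 5 of 9 genes, where 51.6% of all genes did.

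**Figure D1:**
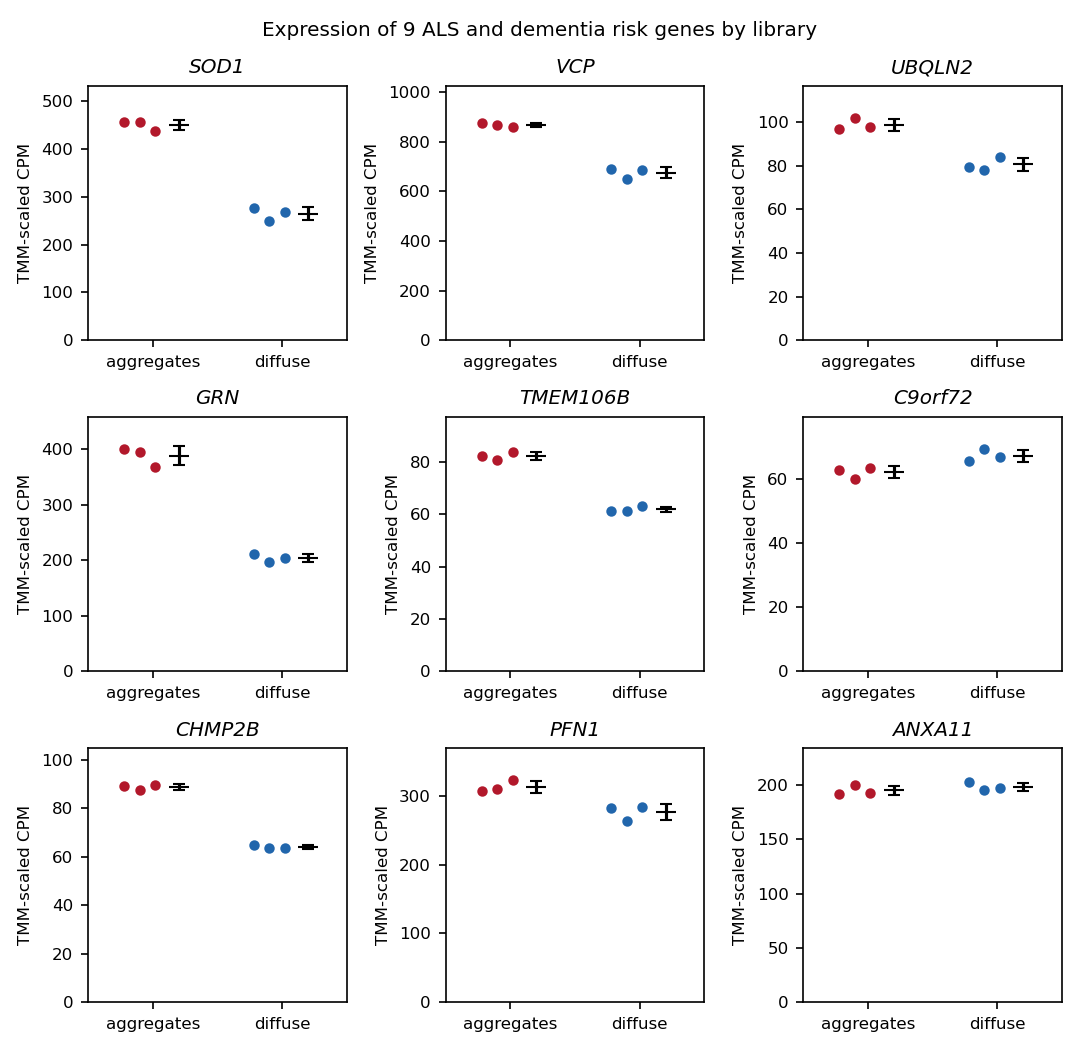
TMM-scaled CPM (linear axis from 0) of the 9 risk genes in each library, with red points for the 3 aggregate libraries and blue points for the 3 diffuse libraries, beside the mean and SD of each group in black. GRN and SOD1 show the widest gaps, the C9orf72 points of aggregate cells lie just under those of diffuse cells, and only the ANXA11 groups overlap.

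VCP encodes a hexameric ATPase that pulls ubiquitinated proteins out of membranes and complexes, and its mutations cause inclusion body myopathy with dementia and ALS. It had 876, 866 and 859.9 CPM in aggregate cells, against 689, 648 and 685 CPM in diffuse cells. Every aggregate library lay above every diffuse library, and the aggregate libraries were the tighter group. It rose by 0.36 on the log2 scale (SE 0.04, adjusted p = 3.58e-15 in edgeR's quasi-likelihood fit). The gene lies on chromosome 9 at 35056064 to 35073249 on the minus strand of hg38. Among 29 tested VCP cofactors, which direct the ATPase to its substrates, 15 rose, 8 fell and 6 did not pass. Their median was 0.09 on the log2 scale, and 51.7% of them rose and 27.6% fell, where 37.8% of all genes rose and 37.6% fell. UBXN7, which links VCP to cullin ubiquitin ligases, fell to 68.2 ± 2.22 CPM in aggregate cells, against 119.8 ± 5.11 CPM in diffuse cells. UBXN2A fell by 0.59 on the log2 scale, while ZFAND2B (0.57) and UBXN1 (0.51) rose. The substrate-recruiting partner NPLOC4 rose by 0.12, and its partner UFD1 did not pass (0.07, adjusted p = 0.08 by edgeR). NPLOC4 and UFD1 were picked by their role, with values known.

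UBQLN2 encodes ubiquilin-2, which shuttles ubiquitinated clients to the proteasome and is mutated in X-linked ALS with dementia. It stood at 96.7, 101.7 and 97.4 CPM in aggregate cells, against 79.4, 78.0 and 84.0 CPM in diffuse cells. All aggregate libraries were higher, and the gap between the nearest libraries was wider than the range within either group. It rose by 0.29 on the log2 scale (SE 0.04, adjusted p = 3.22e-11 in edgeR's quasi-likelihood fit), but a fold above 1.2 did not pass (adjusted p = 0.138). UBQLN2, on chromosome X at 56563639 to 56567868, has no introns and so no splicing values. Of 8 tested genes in the list of ubiquilins and HSP70 partners, 4 rose and 3 fell, where 37.8% of all genes rose and 37.6% fell. HSPA8, the constitutive HSP70 chaperone that hands clients to ubiquilins, rose to 2328 ± 20.3 CPM in aggregate cells, against 1281 ± 57.9 CPM in diffuse cells. STUB1, a chaperone-linked ubiquitin ligase, rose as well (log2 fold change 0.33), while the ubiquitin ligase UBE3A (-0.45) and HSPA13, a chaperone-like ATPase (-0.32), fell. The paralog UBQLN1, also picked by role with values known, rose by 0.31 on the log2 scale, a value close to that of UBQLN2.

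SOD1 encodes the cytosolic copper and zinc superoxide dismutase, the first gene linked to familial ALS. Its levels were 456, 456 and 437 CPM in aggregate cells and 277, 249.6 and 268 CPM in diffuse cells. The lowest aggregate library was far above the highest diffuse library. It rose by 0.77 on the log2 scale (SE 0.04, adjusted p = 1.8e-34 in edgeR's quasi-likelihood fit), and 10.9% of all genes tested rose by more. SOD1 lies on chromosome 21 at 31659622 to 31668931 on the plus strand. It overlaps an antisense RNA, AP000254.1, and has 3 named pseudogenes. Because the strand setting of the counting is not given in the sources used here, their reads cannot be separated from those of SOD1. SOD2, the mitochondrial dismutase, rose to 417 ± 24.9 CPM in aggregate cells, against 145 ± 2.29 CPM in diffuse cells, a log2 fold change of 1.52. ATOX1, a copper chaperone, rose by 0.58, DERL1, an endoplasmic reticulum channel component that binds mutant SOD1, fell by 0.21, and CCS, the copper chaperone of SOD1 itself, did not pass (-0.04). SOD3, the extracellular dismutase, was barely counted (0.669 ± 0.197 CPM in aggregate cells, 0.935 ± 0.247 CPM in diffuse cells). It passed as fallen (adjusted p = 0.042 by edgeR) with overlapping groups, but lost this call with DESeq2, with upper quartile scaling, with library totals alone, against a fold of 1.2, with low counts left in, and without aggregate library 2, diffuse library 1 or diffuse library 3. In all, 2 of the 5 SOD1 partners rose and 2 fell, where 37.8% of all genes rose and 37.6% fell.

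GRN encodes progranulin, a secreted and lysosomal glycoprotein whose loss causes frontotemporal dementia with TDP-43 deposits. It was counted at 401, 395 and 368 CPM in aggregate cells and 212, 197 and 205 CPM in diffuse cells. The groups lay far apart, with aggregate library 3 the lowest of its group. It rose by 0.92 on the log2 scale (SE 0.04, adjusted p = 2.45e-40 in edgeR's quasi-likelihood fit), and 7.76% of all genes tested rose by more. The gene lies on chromosome 17 at 44345086 to 44353102 on the plus strand. The 3 genes whose profile over the 6 libraries lay nearest to that of GRN, by Euclidean distance of centred log2 CPM, were HEXA (distance 0.0363), AOX1 (0.0607) and PLPP6 (0.061). HEXA encodes the alpha subunit of the lysosomal enzyme beta-hexosaminidase, AOX1 an aldehyde oxidase and PLPP6 a phosphatase of lipid phosphates.

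A stretch upstream of the RefSeq start of GRN (chr17:44345052-44345102, plus strand, RefSeq on GRCh38.p14) is shown because GRN rose most among the 9 genes. The longest GENCODE transcript, from which the span of GRN above is taken, begins inside it at 44345086. Relative to the RefSeq start, the first match is at -223. Capitals mark matches to TCACATGA, an E-box-related sequence bound by MiT family transcription factors of lysosome and pigment genes.
GRN upstream motif pair: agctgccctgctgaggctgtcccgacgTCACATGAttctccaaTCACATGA
The motif was searched on both strands in 250 bases before to 50 bases after each RefSeq start. GRN held 2 matches, the 10 other windows of the 8 risk genes with an entry held 0, and 1.0% of 35116 promoters held at least 1. The E-box CACGTG, present in 7.26% of promoters, was in 0 of these windows. TGACNNNGC, the core of the antioxidant response element, was in 13.3% of promoters, with 2 matches at UBQLN2 and 1 each at VCP and CHMP2B. A match describes letters only.

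Of 20 tested genes in the list of progranulin and lysosome partners, 13 rose and 6 fell, where 37.8% of all genes rose and 37.6% fell. The list's median was 0.57 on the log2 scale, but it was chosen with earlier results of these data known. Its values therefore describe the chosen genes only. GPNMB, a transmembrane glycoprotein of lysosomes and melanosomes, rose to 323 ± 9.97 CPM in aggregate cells, against 43.5 ± 1.42 CPM in diffuse cells. LAMP1, a main lysosomal membrane protein, rose to 795 ± 7.46 CPM in aggregate cells, against 346 ± 7.6 CPM in diffuse cells, and CTSD, a lysosomal protease, rose by 0.98 on the log2 scale. PSAP, which carries progranulin to lysosomes, rose by 0.82, while SORT1, the receptor that takes progranulin up, fell by 0.18 (picked by role, with values known).

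TMEM106B encodes a lysosomal membrane protein whose common variants modify the risk of dementia in GRN carriers. Its levels were 82.3, 80.9 and 84.0 CPM in aggregate cells and 61.3, 61.4 and 63.0 CPM in diffuse cells. The groups were separated by far more than the range within either. It rose by 0.41 on the log2 scale (SE 0.04, adjusted p = 3.97e-17 in edgeR's quasi-likelihood fit). TMEM106B lies on chromosome 7 at 12211241 to 12243367 on the plus strand. Per kilobase of merged exons it was the lowest of the 9 genes, at 5.94 CPM per kb in aggregate cells and 4.46 CPM per kb in diffuse cells.

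CHMP2B encodes a subunit of ESCRT-III, the filament that cuts membrane necks in endosomes, and truncating mutations cause a familial dementia. It had 89.5, 87.6 and 89.7 CPM in aggregate cells, against 64.9, 63.6 and 63.6 CPM in diffuse cells. Replicates of both groups were tight and the groups did not overlap. It rose by 0.47 on the log2 scale (SE 0.04, adjusted p = 1.31e-20 in edgeR's quasi-likelihood fit), on chromosome 3 at 87227271 to 87255548, plus strand. Of its relatives, 14 tested ESCRT-III and VPS4 genes, 5 rose, 6 fell and 3 did not pass. These shares, 35.7% risen and 42.9% fallen, are near those of all genes tested (37.8% and 37.6%). VPS4B, an ATPase that takes ESCRT-III filaments apart, fell to 95.8 ± 2.16 CPM in aggregate cells, against 158 ± 3.45 CPM in diffuse cells, and the ESCRT-III-like protein IST1 fell by the same 0.72 on the log2 scale. CHMP5 (0.63) and CHMP6 (0.60), both ESCRT-III family members, rose.

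C9orf72 encodes a protein that forms a complex with SMCR8 and WDR41 in autophagy and lysosome signalling, and expansion of a GGGGCC repeat in its first intron is the most common inherited cause of ALS and frontotemporal dementia. It was the sole risk gene that fell, with 62.9, 59.9 and 63.3 CPM in aggregate cells and 65.5, 69.2 and 66.9 CPM in diffuse cells. The groups did not overlap, but the highest aggregate and lowest diffuse libraries lay close together. On the log2 scale the difference was -0.12 (SE 0.04, adjusted p = 0.00603 in edgeR's quasi-likelihood fit). The call was lost with upper quartile scaling (-0.07, adjusted p = 0.09) and without the second aggregate library (-0.09, adjusted p = 0.0592). The gene lies on chromosome 9 at 27546545 to 27573866 on the minus strand. The nearest profiles belonged to NNT-AS1 (distance 0.0257), an antisense RNA, SAFB2 (0.0325), a nuclear scaffold protein, and PARP2 (0.0384), a DNA repair enzyme. Of its 11 tested complex members and partners, 4 rose and 6 fell, where 37.8% of all genes rose and 37.6% fell. The late endosome GTPase RAB7A rose to 353 ± 4.32 CPM in aggregate cells, against 207 ± 7.59 CPM in diffuse cells, and the autophagy initiation scaffold RB1CC1 rose by 0.58 on the log2 scale. RAB11A, of recycling endosomes, and the autophagy kinase ULK1 fell (-0.37 and -0.35). The complex partners, picked by role with values known, split: SMCR8 rose by 0.25 and WDR41 fell by 0.15.

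PFN1 encodes profilin-1, which delivers actin monomers to growing filaments. It stood at 306, 310.0 and 322 CPM in aggregate cells and 282, 263 and 283 CPM in diffuse cells. All aggregate libraries were higher, by a margin similar to the spread within groups. It rose by 0.18 on the log2 scale (SE 0.04, adjusted p = 6.57e-06 in edgeR's quasi-likelihood fit), and a fold above 1.2 did not pass (adjusted p = 1). PFN1, on chromosome 17 at 4945652 to 4949061 on the minus strand, overlaps ENO3 on the other strand and has 10 named pseudogenes, so its count is uncertain. Of 18 tested actin assembly genes, 3 rose, 9 fell and 6 did not pass, where 37.8% of all genes rose and 37.6% fell. TMSB10, which binds actin monomers, fell to 653 ± 23.8 CPM in aggregate cells, against 985 ± 5.52 CPM in diffuse cells. The filament elongation factors ENAH (-0.57) and DIAPH3 (-0.53) fell, and the paralog PFN2 rose by 0.50.

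ANXA11 encodes an annexin that tethers RNA granules to lysosomes. It was at 191.5, 199.7 and 192.8 CPM in aggregate cells and 202, 195 and 197 CPM in diffuse cells. The groups overlapped, and the gene did not pass (log2 fold change -0.02, SE 0.04, adjusted p = 0.537 in edgeR's quasi-likelihood fit). It lies on chromosome 10 at 80150889 to 80205572 on the minus strand. Of 15 tested annexins and partners, 6 rose and 6 fell, close to the 37.8% and 37.6% of all genes tested. ANXA5 rose to 509 ± 6.04 CPM in aggregate cells, against 293 ± 4.86 CPM in diffuse cells, ANXA4 (0.65) and ANXA7 (0.61) rose, and S100A10, the partner of annexin A2, fell by 0.64.

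**Figure D2:**
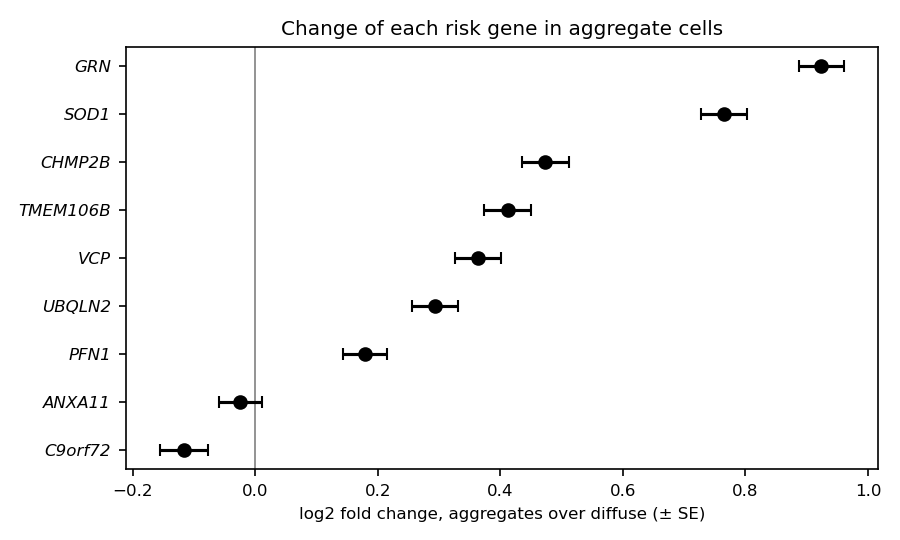
Log2 fold change of aggregate over diffuse cells for each risk gene (horizontal axis), with bars of ± 1 SE from the edgeR quasi-likelihood fit and genes ordered by size. GRN (0.92) and SOD1 (0.77) lie furthest to the right, and ANXA11 (-0.02) and C9orf72 (-0.12) lie left of the zero line.

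Per kilobase of merged exons, SOD1 ranked highest in aggregate cells (223 CPM per kb), followed by VCP (159.5), PFN1 (157), GRN (105), CHMP2B (28.6), UBQLN2 (23.3), ANXA11 (22.9), C9orf72 (9.79) and TMEM106B (5.94). In diffuse cells PFN1 came first (139 CPM per kb), then SOD1 (131), VCP (124), GRN (55.5), ANXA11 (23.3), CHMP2B (20.6), UBQLN2 (19.0), C9orf72 (10.6) and TMEM106B (4.46). VCP and PFN1 in aggregate cells, and UBQLN2 and ANXA11 there, were too close to order. In diffuse cells SOD1 overlapped both PFN1 and VCP, while PFN1 and VCP did not overlap. These levels divide by the merged length of all annotated exons, 13867 bases for TMEM106B and 1987 bases for PFN1.

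Among 37 other tested ALS and dementia genes, 16 rose, 14 fell and 7 did not pass, and the median was -0.03 on the log2 scale. These counts are near the shares of all genes tested, of which 37.8% rose and 37.6% fell. By the size of their change, the autophagy receptor SQSTM1 (2.59) was among the rises, and TARDBP (-1.53) and the membrane tether VAPB (-0.87) were among the falls. VAPB had 101 ± 1.33 CPM in aggregate cells and 185 ± 2.68 CPM in diffuse cells. All partner genes given as risen or fallen passed the same edgeR test, and the other genes of each list are described by their counts.

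**Figure D3:**
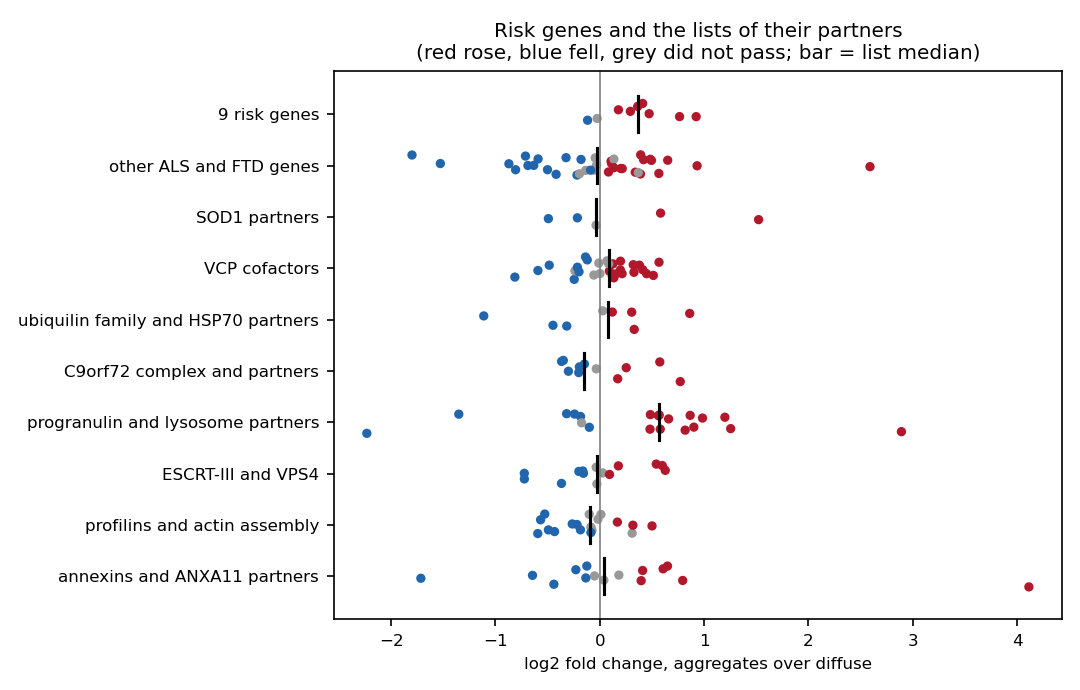
Log2 fold change of aggregate over diffuse cells for the 9 risk genes and for each list of related genes (1 row per list, 1 point per tested gene, black bar for the list's median). Red points rose, blue points fell and grey points did not pass the edgeR test. The lysosome list has the highest median (0.57), and the C9orf72 list (-0.15) and the actin list (-0.09) have the lowest. All lists were chosen with earlier results of these data known.

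Splicing was measured as the share of a cluster's reads that an intron took, a cluster being a set of introns that share splice sites. The 9 genes had 27 tested clusters, with 110 introns, of which 67 are annotated in GENCODE 29. Of these, 5 clusters changed, in SOD1, VCP (2), GRN and ANXA11, against 5.02% of all 35898 clusters tested (edgeR diffSpliceDGE, Simes test, Benjamini-Hochberg adjusted). An edgeR F test per cluster called 7.58% of all clusters and also 5 of the risk genes, with one in TMEM106B in place of that in ANXA11. At the level of single introns, 6 of the 110 fell and 0 rose relative to their cluster, where 1.44% of all introns fell and 0.614% rose. Among the 6, the GRN intron and the VCP intron ending at 35059442 had reads in diffuse cells only. They passed the count filter through that group alone, so they could only be called as fallen. The clusters of these introns were called through them, so the count of 5 changed clusters rests in part on that filter. In the changed clusters below, the introns that fell were minor ones except in ANXA11. The exon that the ANXA11 intron skips was included in 52.3 ± 2.14% of reads in diffuse cells. Most of the fallen introns skipped an exon or used a seldom used site.

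Among these, SOD1 had the cluster with the most reads. It holds 9 introns, and cluster shares below are of all of them. Among them are introns 1, 2 and 3 and an unannotated intron from 31659842 to 31666448. The latter joins exon 1 to exon 3 and leaves out exon 2. The skipping intron took 0.266%, 0.323% and 0.353% of cluster reads in aggregate cells, against 0.702%, 0.526% and 0.509% in diffuse cells. All aggregate libraries were lower, and the highest value was that of the first diffuse library. The counts were 80, 108 and 99 reads in aggregate cells and 118, 84 and 87 in diffuse cells, of 28024 to 33478 cluster reads in aggregate libraries and 15967 to 17107 in diffuse libraries. The number of skipped reads was thus alike while the number of cluster reads differed. In aggregate cells the share was 0.314 ± 0.0443% and in diffuse cells 0.579 ± 0.107% (edgeR diffSpliceDGE, adjusted p = 0.000299 for the intron and 0.000812 for the cluster). Without the first diffuse library the cluster's adjusted p was 0.0984. Exon 2 was included in 99.1 ± 0.121% of reads in aggregate cells and 98.3 ± 0.307% in diffuse cells. The neighbouring introns 31659842 to 31663789 and 31663887 to 31666448 took 33.3 ± 1.16% and 35.4 ± 0.519% of cluster reads in aggregate cells, against 31.9 ± 0.0736% and 36.1 ± 0.41% in diffuse cells. Both sets of libraries overlapped. The skipping intron was named after its test was seen.

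VCP had a changed cluster at its first exon. The main intron, 35068363 to 35072336, took 97.9%, 97.4% and 98.3% of reads in aggregate cells and 96.5%, 94.5% and 95.1% in diffuse cells. Introns from the first exons of the shorter transcripts VCP-202 (35068363 to 35071756) and VCP-203 (35068363 to 35072276) took most of the rest, and the first exon of both transcripts is untranslated. Another, unannotated intron, 35068355 to 35072336, took 0.107 ± 0.0674% in aggregate cells and 0.153 ± 0.138% in diffuse cells. The VCP-202 intron took 0.977%, 1.34% and 0.727% in aggregate cells, against 2.29%, 2.77% and 1.76% in diffuse cells. No library of one group reached the range of the other for either of these shares. For VCP-202 the adjusted p was 0.0283 and for the cluster 0.0237 (edgeR diffSpliceDGE). The VCP-203 intron, named after its test was seen, had 1 ± 0.113% in aggregate cells and 2.22 ± 0.896% in diffuse cells (edgeR adjusted p = 0.0244). The cluster's adjusted p was 0.106, 0.0503 and 0.178 without aggregate library 1, 2 or 3 and 0.211 without the second diffuse library. In a cluster further along, an unannotated intron, 35059220 to 35059442, had 0, 0 and 0 reads in aggregate cells and 1, 3 and 9 in diffuse cells, so it rests on few reads. It passed the count filter through the diffuse libraries alone. Its adjusted p was 0.0381 and that of its cluster 0.0442 (edgeR diffSpliceDGE). The 12772 cluster reads of aggregate cells allow a share of up to 0.0235%. That cluster's call was lost without any of the 3 aggregate libraries (adjusted p 0.134, 0.158 and 0.13) and without the second diffuse library (0.0675), and without the third diffuse library it was not tested. The annotated intron of that cluster, 35059220 to 35059492, took 99.98 ± 0.0136% of reads in aggregate cells and 99.76 ± 0.197% in diffuse cells.

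GRN differed at an acceptor site. From the donor before 44350341 the usual intron ends at 44350441, and a second one ends at 44350461, which leaves out the first bases of the next exon. GENCODE assigns the second one to GRN-206, a transcript marked for nonsense-mediated decay. The longer intron had 0, 0 and 0 reads in aggregate cells, against 14, 7 and 0 in diffuse cells. The third diffuse library was at 0 like the aggregate libraries, so the groups overlapped. Its share was 1.28% in the first diffuse library (exact 95% Clopper-Pearson interval 0.7 to 2.13%) and 0.672% in the second (0.271 to 1.38%). The 6493 cluster reads of aggregate cells allow a share of up to 0.0462%. The usual intron took 100%, 100% and 100% in aggregate cells and 98.7%, 99.3% and 100% in diffuse cells. By edgeR diffSpliceDGE, the adjusted p was 0.0017 for the second intron and 0.00129 for the cluster. The second intron passed the count filter through the diffuse libraries alone. Without the first diffuse library the cluster had too few reads on the second intron to be tested. At another GRN donor, the longer annotated intron 44352572 to 44352715 went the other way without passing. It had 7, 0 and 5 reads in aggregate cells and 0, 0 and 0 in diffuse cells (adjusted p = 0.265 by edgeR diffSpliceDGE).

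ANXA11, whose gene count did not pass, had a changed cluster that includes introns of its 5′ untranslated region. The cluster holds 14 introns from 80164144 to 80207202, past the gene's span, and cluster shares below are of all of them. Intron 80164144 to 80166083, further downstream, took 48.7 ± 0.841% in aggregate cells and 48.3 ± 1.34% in diffuse cells. It is joined to the rest by intron 80164144 to 80205342, with 3 reads in aggregate cells and 9 in diffuse cells. The intron from 80172870 to 80205342 skips a 49-base untranslated exon (80176107 to 80176155). It took 9.72%, 11.6% and 10.5% of cluster reads in aggregate cells, against 13.7%, 14.1% and 15.5% in diffuse cells. Every aggregate library was lower. Its adjusted p was 0.00387, and that of the cluster 0.0146 (edgeR diffSpliceDGE) but 0.104 in the cluster F test. The exon was included in 65.0%, 59.9% and 62.3% of reads in aggregate cells and 54.6%, 52.0% and 50.4% in diffuse cells. This was the widest shift among the 18 exons whose inclusion could be compared. The intron between this exon and the first exon, 80176156 to 80205342, took 15.0 ± 0.733% in aggregate cells and 13.1 ± 0.753% in diffuse cells (adjusted p = 0.514 by edgeR). Without aggregate library 1 or 3 the cluster's adjusted p was 0.165 or 0.0728, and without diffuse library 2 or 3 it was 0.0599 or 0.206.

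**Figure D4:**
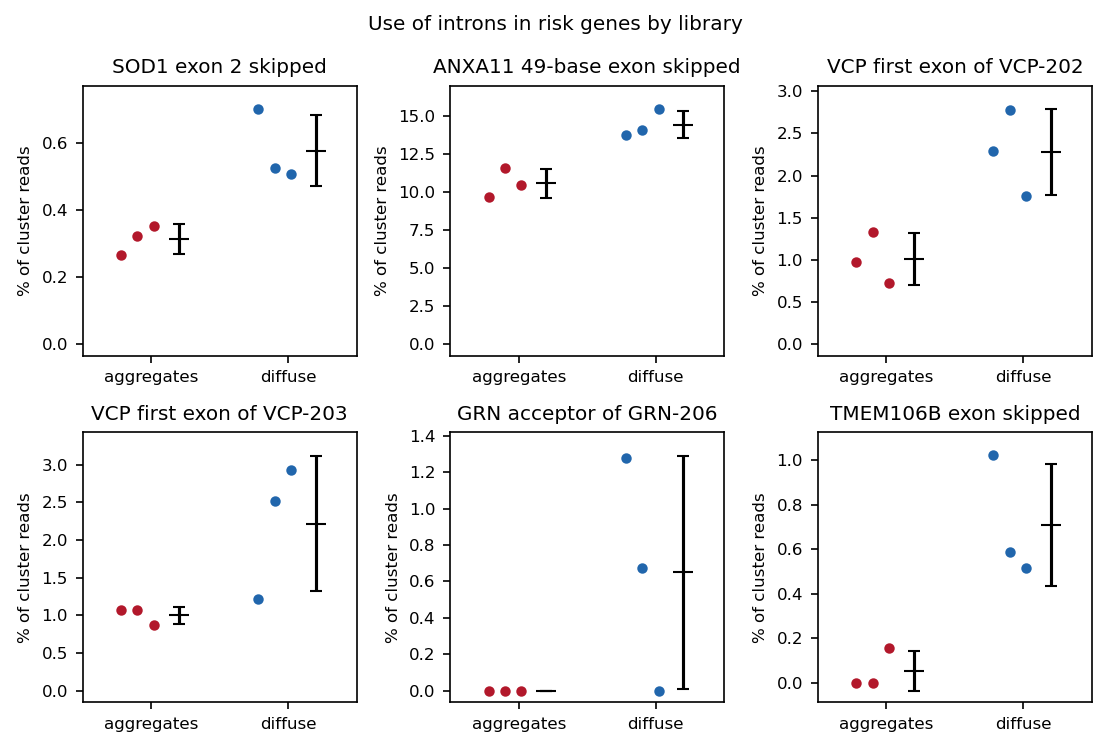
Share of cluster reads (percent, linear axis) taken by 6 introns in each library, with red points for the 3 aggregate libraries and blue points for the 3 diffuse libraries, beside the mean and SD in black. In 5 panels every aggregate library lies below every diffuse library. In the GRN panel the third diffuse library is at 0, as are all aggregate libraries. The TMEM106B intron did not pass the test.

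TMEM106B had a cluster that passed the F test (adjusted p = 0.0151) but not the Simes test (0.0968, both edgeR). The unannotated intron 12218522 to 12229678, which skips the 160-base coding exon 12224226 to 12224385, had 0, 0 and 2 reads in aggregate cells and 9, 5 and 4 in diffuse cells. The groups did not overlap, and the intron did not pass (adjusted p = 0.0689 by edgeR). The exon was included in 99.9 ± 0.179% of reads in aggregate cells and 98.6 ± 0.542% in diffuse cells.

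C9orf72 had 6 tested clusters, and 0 passed. The repeat sits between its alternative first exons 1a and 1b, in intron 1 of transcripts that begin at exon 1a. The sequence from the end of exon 1a to the start of exon 1b (chr9:27573482-27573708, minus strand, RefSeq on GRCh38.p14) is shown because it lies within the exon 1a intron that was counted. Capitals mark the 3 GGGGCC units of the reference genome, at 27573529 to 27573546, not those of U2OS.
C9orf72 intron 1 and exon 1b promoter: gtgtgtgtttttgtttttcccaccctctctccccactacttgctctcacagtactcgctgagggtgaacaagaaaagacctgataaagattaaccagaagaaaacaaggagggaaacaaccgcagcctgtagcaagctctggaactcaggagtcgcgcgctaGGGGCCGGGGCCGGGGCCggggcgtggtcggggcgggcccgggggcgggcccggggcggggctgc
Such a run of 3 units are found in 0.0285% of the promoters. The exon 1a intron, 27567165 to 27573708, had 5, 7 and 1 reads in aggregate cells and 5, 0 and 5 in diffuse cells. The exon 1b intron, 27567165 to 27573430, had 118, 121 and 119 reads and 99, 108 and 125 reads in the same order. Exon 1b gave most spliced reads in every library, and the groups overlapped. Exon 1a accounted for 3.46 ± 2.38% in aggregate cells and 2.89 ± 2.54% in diffuse cells, which the test did not tell apart (edgeR adjusted p = 1). With 13 and 10 reads in all, only a large shift would have been detectable. In the C9orf72 cluster with the most reads, the annotated intron 27565591 to 27566676 took 99.4 ± 0.695% in aggregate cells and 99.5 ± 0.275% in diffuse cells.

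The single PFN1 cluster, with 13647 to 18790 reads per library, had an adjusted p of 1, and its widest difference was 0.0917 percentage points. Introns 4945998 to 4946627 and 4946821 to 4948262 took 35.08 ± 0.378% and 64.68 ± 0.454% in aggregate cells, against 34.98 ± 0.334% and 64.75 ± 0.288% in diffuse cells. In CHMP2B, neither of 2 clusters passed. Intron 87227557 to 87240698, which joins exon 1 to the 92-base exon 87240699 to 87240790, took 45.2 ± 1.31% in aggregate cells and 40.5 ± 1.02% in diffuse cells without overlap, and the cluster's adjusted p was 0.68 by edgeR.

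Across the risk genes, 18 annotated exons could be compared for inclusion, in 8 genes. Of these, 10 were included in over 50% of reads in diffuse cells, and all 10 had a higher mean inclusion in aggregate cells. The groups did not overlap for 5 of the 10: SOD1 exon 2, VCP 35064154 to 35064285, TMEM106B 12224226 to 12224385, CHMP2B 87240699 to 87240790 and ANXA11 80176107 to 80176155. Only the skipping introns of SOD1 and ANXA11 passed the intron test. Those of VCP (5 reads in aggregate cells, 14 in diffuse cells), TMEM106B (2 and 18) and CHMP2B (31 and 36) did not. Their adjusted p-values by edgeR diffSpliceDGE were 0.566, 0.0689 and 0.457. Of the other 8 exons, used in at most 50% of reads, 6 had a lower and 2 a higher mean inclusion in aggregate cells, and 2 showed no overlap. These were CHMP2B 87240323 to 87240453 (4.37 ± 0.46% in aggregate cells, 6.61 ± 0.933% in diffuse cells) and TMEM106B 12214201 to 12214394 (3.39 ± 0.89% in aggregate cells, 1.81 ± 0.258% in diffuse cells). Over the whole table, 20083 such exon and skipping intron pairs were included in over 50% of reads, 67.9% were higher in aggregate cells and 24.9% did not overlap, with a median difference of 0.491 percentage points. Of the 6099 pairs at or below 50%, 50.9% were lower in aggregate cells and 28.2% did not overlap. Unannotated introns took a smaller share of reads in aggregate cells. Over the whole table they made up 1.41 to 1.46% of spliced reads in aggregate cells and 1.69 to 1.78% in diffuse cells. In TMEM106B they made up 0.179 ± 0.0572% in aggregate cells and 0.988 ± 0.111% in diffuse cells, in SOD1 0.4 ± 0.0572% and 0.721 ± 0.109%, and in VCP 0.133 ± 0.031% and 0.262 ± 0.00808%. These 3 genes showed no overlap between groups, and the other 5 genes with introns did overlap.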

How the data were processed

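RNA of 6 sorted U2OS libraries was polyA-selected and prepared with a stranded kit, per the labels' protocols. The submitters' processing notes name fastp (0.23.2), STAR (2.7.11a) and the build hg38. The sources used here do not give the counter, its strand setting or the LeafCutter version. Both deposited tables hold raw counts, of reads per gene in the first and of spliced reads per LeafCutter intron in the second. Introns with no alternative are not in the second table.

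Genes were tested with edgeR 4.0.16 (R 4.3.3): filterByExpr, TMM scaling, robust quasi-likelihood F test, Benjamini-Hochberg over 17839 genes, threshold 0.05. The common biological coefficient of variation was 3.08%. Clusters with at least 2 introns of at least 10 counts over the 6 libraries, and at least 10 counts in every library, were tested with diffSpliceDGE. Exon inclusion averages the 2 introns that flank an exon and divides by the sum of this average and the skipping intron's count. Intervals, and limits from 0 reads (3 counts of the total), cover counting error only.

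The members and lists were chosen with earlier results of these data known. All 9 members are named, with up to 4 changed partners per list (largest change, mean of at least 5 CPM, no overlap), 2 introns per changed cluster by size of difference, the cluster with the most counts in genes without a changed one, and the 3 nearest profiles to the largest rise and fall. MATR3 is on more than 1 row and was left out. Some genes and sequences are not reported here. Introns, exons and exon lengths follow GENCODE 29, promoters follow RefSeq, and SOD1 has no promoter entry. Replicates differed by more than sampling noise (chi-square per degree of freedom 2.44 to 5.84). On simulated data, 66% of genes changed 1.2-fold, 81% of those changed 1.5-fold and 95% of clusters with an intron changed 2-fold were recovered. There, 100 genes of each size among 17762 and 200 clusters among 35586 were changed, with 1 fixed spread for genes and 1 for introns. In the data 75.4% of genes changed, so these rates need not hold for them. Only well counted introns were changed in the simulation. The cluster rate thus does not cover introns with few reads, such as those of GRN, TMEM106B, the second VCP cluster and C9orf72 exon 1a.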

Additional observations from a re-analysis of the deposited data

How the results depend on the processing

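Over the alternatives tried (other scalings, DESeq2, no filter, a test against a fold of 1.2, a replicate block and each library left out), the log2 fold change of GRN stayed between 0.89 and 0.97, SOD1 between 0.718 and 0.812, CHMP2B 0.462 to 0.52, TMEM106B 0.394 to 0.458 and VCP 0.33 to 0.41, all called. UBQLN2 (0.265 to 0.34) and PFN1 (0.139 to 0.225) lost their call against a fold of 1.2 alone, where 4483 genes rose, 5 of the 9 changed and 0 fell. C9orf72 (-0.139 to -0.0707) lost its call there, with upper quartile scaling and without the second aggregate library, so that 0 of the 9 fell in each. ANXA11 turned to 0.0216 with upper quartile scaling, which moved the median of all genes to 0.0557. The cause of these changes was not tested.

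In the cluster F test 2721 clusters passed. With 1 library left out, 1171 to 1318 clusters and 2 to 3 of the risk genes' clusters passed (1171 without the third diffuse library). Of the named introns, those of VCP and ANXA11 lost their call without 1 or more libraries. The GRN intron could not be tested without the first diffuse library, so its call was not kept there either. The GRN, TMEM106B and second VCP introns rest on few reads, which limits what their shares can show.

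Same-numbered libraries of the 2 groups correlated weakly, at 0.0362, 0.0831 and 0.0602, and the main test did not treat them as pairs. With the replicate block 13530 genes, 1494 clusters and 4 of the risk genes' clusters passed, and the VCP intron ending at 35059442 lost its call (adjusted p = 0.119, edgeR). Each library correlated best with that of its own number, a hint of weak pairing from the data and not from the design.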
